A study of Mus musculus with 6 samples.

Results

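The genes described are 10 genes of nitric oxide (NO) and cyclic guanosine monophosphate (cGMP) signalling, *Gucy1a2*, *Gucy1a3*, *Gucy1b3*, *Nos3*, *Prkg1*, *Pde5a*, *Pde3a*, *Npr1*, *Npr2* and *Npr3*. They were chosen by name, and all 10 were found among the 33460 Ensembl genes of the deposited files. RNA-seq was performed on *Pdgfrb-eGFP/NG2-DsRed* mouse brains at the age of 6 postnatal days, with 3 samples of FACS sorted mural cells and 3 samples of whole microvascular fragments. Mice of both groups carried both reporters, eGFP under the *Pdgfrb* promoter (line Tg(Pdgfrb-eGFP)JN169Gsat/Mmucd) and DsRed under the NG2 promoter, and no treatment is named. Each of the 3 brains was split, and both sides were digested with collagenase. One side was dissociated to single cells for sorting of cells positive for both reporters. From the other side, vessel fragments were captured on beads coated with anti-CD31 antibody. The fragments contain endothelial cells (EC) and mural cells, so a ratio between the groups is not a ratio between mural cells and EC. The sorted cells include pericytes (PC) and vascular smooth muscle cells (VSMC), and VSMC with little NG2-DsRed may be missed.

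In the vessel wall, EC make NO from arginine with the synthase encoded by *Nos3*. NO diffuses into neighbouring mural cells, where it binds the heme of soluble guanylate cyclase, a dimer of an alpha and a beta subunit, which then makes cGMP. cGMP activates the kinase encoded by *Prkg1*, which relaxes smooth muscle, and is broken down by phosphodiesterases such as PDE5. Natriuretic peptides raise cGMP by a separate route, through membrane receptors that are themselves guanylate cyclases (*Npr1*, *Npr2*), while the receptor encoded by *Npr3* mainly clears the peptides.

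Depth and purity of the libraries bear on what follows. The values rest on approximately 5.43 to 5.97 M fragments on protein-coding genes in the microvascular libraries and on 1.04 to 2.36 M in the mural cell libraries, with mural cell replicate 1 the deepest of its group. A value resting on 3 fragments over 2 kb would be an FPKM (fragments per kilobase, scaled to the size of the library) of 0.322 to 0.353 in fragments and of 0.847 to 2.01 in mural cells, and this covers counting error only. All 10 mural markers and all 6 smooth muscle markers were higher in the sorted cells, with ratios of 6.47 to 10.9 and of 7.05 to 12.5. The genes whose promoters drive the reporters, *Pdgfrb* and *Cspg4* (NG2), had ratios of 9.80 and 6.47. For the 12 EC markers the median level in the sorted cells was 72.8% of that in the fragments, 6 of them fell at an adjusted p under 0.05, and none was at 0. Fibroblast markers rose with the mural markers, in 4 of the 5 tested past 2-fold, with a summed FPKM of 338 to 406 against 36.4 to 43.3, although *Dpt* was at 0 in all libraries but mural cell replicate 1, and the part of such cells in the results below was not tested. The 8 microglia markers all fell, to a median of 8.59% of the fragments, and 1 of 6 oligodendrocyte lineage markers, 1 of 6 neuron markers and 0 of 6 astrocyte markers fell. Astrocyte markers stood apart in mural cell replicate 3, with a summed FPKM of 678 against 182 and 231 in the other mural cell libraries, and the 6 calls given next were also made without that library.

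Genes were compared on log2(FPKM + 1) with limma and Benjamini-Hochberg adjustment over 14801 genes, those that reached an FPKM of 1 in 3 or more libraries. A gene was called higher or lower at an adjusted p under 0.05 together with a ratio of mean FPKM above 2 or under 0.5. A log2 fold change here is a difference in log2(FPKM + 1), which makes changes of genes with low values appear smaller. By these limits on p and ratio, 6 of the 10 genes were called higher in mural cells, where 6.43% of all genes tested were, and 0 were called lower, where 10.1% of all genes tested were. The genes were chosen with earlier results of these data known, so these counts are a description and not an independent test. At an adjusted p under 0.05 with no limit on the ratio, 6 genes rose and 1, *Nos3*, fell, against a background of 9.34% and 13.0% of all genes. The count of 0 lower genes came from limma, and at an unadjusted p under 0.05 with no limit on the ratio the only gene of the 10 lower in mural cells was also *Nos3*. All 10 genes had an FPKM of at least 1 in each of the 6 libraries, so that none entered the test through 1 group alone. The background shares of lower genes do include genes that entered through the fragments alone. An example is *1700112E06Rik*, at an FPKM of 2.46 to 3.01 in the fragments and 0 in mural cells. Those shares are thus not drawn only from genes like these 10. The median log2 fold change of the 10 genes was 2.10, beside -0.12 over all genes tested. Quantile normalization moved the median of all genes to 0.01 and the split of calls from 952 higher and 1493 lower to 1223 higher and 1128 lower, whereas the 6 genes kept their calls under it. In these bulk samples, fewer cells of a type and less RNA per cell cannot be told apart.

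**Figure D1:**
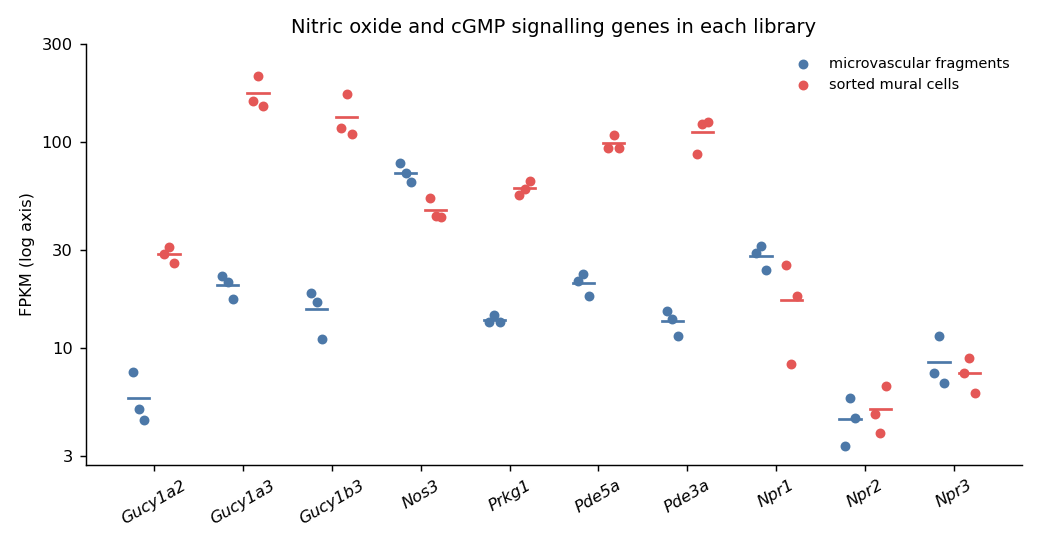
FPKM of the 10 genes (log axis) in the 3 microvascular fragment libraries (blue) and the 3 sorted mural cell libraries (red), with a point per library and a line at the mean. The red points of *Gucy1a2*, *Gucy1a3*, *Gucy1b3*, *Prkg1*, *Pde5a* and *Pde3a* lie above all blue points, those of *Nos3* lie below them, and those of the *Npr* genes overlap them. Of all genes tested, 16.5% lay wholly above and 24.5% wholly below in mural cells.

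The genes for soluble guanylate cyclase were higher in each mural cell library than in any library of fragments, as were 16.5% of all genes tested. The ratios were 4.99 for *Gucy1a2*, 8.54 for *Gucy1a3* and 8.63 for *Gucy1b3*. *Gucy1a3* (ENSMUSG00000033910), which encodes the alpha 1 subunit in current naming, spans bases 81896350 to 81949799 of chromosome 3 (NCBIM37, minus strand). *Gucy1b3* (ENSMUSG00000028005), which encodes the beta 1 subunit, lies on the same strand from 81835926 to 81878633, and the 17.7 kb between both genes hold no other annotated gene. *Gucy1a2* (ENSMUSG00000041624), which encodes the alpha 2 subunit, lies on chromosome 9 from 3532354 to 3897342 on the plus strand.

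The starts of the subunit genes are shown because their transcripts were high in the same libraries, together with those of *Pde5a*, which was higher too, and *Npr1*, which was not. Promoters were taken from the RefSeq table for GRCm38.p6, which held 8 of the 10 genes and not *Nos3* or *Pde3a*, and were located in NCBIM37 by exact match. Each line gives the 250 bases before a start, 5′ to 3′ on the strand of the gene. Capitals mark GGGCGG, the core of a GC box, or its complement.
*Gucy1a2*, chr9:3532099-3532348, plus strand: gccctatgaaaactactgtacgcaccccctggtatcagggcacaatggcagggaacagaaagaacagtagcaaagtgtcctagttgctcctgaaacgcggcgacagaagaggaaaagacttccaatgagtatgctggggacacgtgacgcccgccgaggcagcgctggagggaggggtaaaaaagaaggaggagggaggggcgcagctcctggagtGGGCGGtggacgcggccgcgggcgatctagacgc
*Gucy1a3*, first of 2 starts, chr3:81949573-81949822, minus strand: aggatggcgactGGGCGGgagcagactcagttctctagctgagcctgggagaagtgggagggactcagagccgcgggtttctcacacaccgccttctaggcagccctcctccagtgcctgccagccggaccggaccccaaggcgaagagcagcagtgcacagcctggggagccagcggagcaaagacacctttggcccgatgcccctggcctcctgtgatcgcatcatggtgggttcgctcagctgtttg
*Gucy1b3*, chr3:81878634-81878883, minus strand: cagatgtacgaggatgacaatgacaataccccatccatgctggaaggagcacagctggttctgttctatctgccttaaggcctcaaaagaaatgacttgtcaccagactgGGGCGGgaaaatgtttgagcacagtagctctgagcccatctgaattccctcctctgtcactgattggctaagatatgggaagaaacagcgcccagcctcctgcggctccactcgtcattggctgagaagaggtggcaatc
*Pde5a*, chr3:122431826-122432075, plus strand: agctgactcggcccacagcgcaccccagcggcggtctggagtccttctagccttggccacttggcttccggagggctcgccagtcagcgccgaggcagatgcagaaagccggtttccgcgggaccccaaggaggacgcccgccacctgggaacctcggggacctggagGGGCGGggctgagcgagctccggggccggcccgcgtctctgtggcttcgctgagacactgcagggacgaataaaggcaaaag
*Npr1*, chr3:90269789-90270038, minus strand: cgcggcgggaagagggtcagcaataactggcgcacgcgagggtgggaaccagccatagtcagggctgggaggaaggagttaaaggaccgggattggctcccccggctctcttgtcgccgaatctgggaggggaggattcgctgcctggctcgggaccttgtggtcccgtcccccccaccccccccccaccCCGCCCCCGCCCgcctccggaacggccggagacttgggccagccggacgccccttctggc

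The table gives 10 such windows for the 8 genes, since *Gucy1a3* and *Prkg1* have 2 starts each. GGGCGG was searched on both strands and was found in 7 of the 10 windows, those of *Gucy1a2*, *Gucy1b3*, *Pde5a* and *Npr1*, both of *Prkg1* and the first of *Gucy1a3*, and in 33.0% of the 32536 windows of the table. Counted from the start, it lay at -34 in *Gucy1a2*, at -140 in *Gucy1b3* and at -238 from the first start of *Gucy1a3*, whereas the window of the second start of *Gucy1a3* held 0 matches. The CArG box, to which serum response factor binds in many contractile genes, was found in 0 of the 10 windows and in 1.48% of all windows, and TATAAA in 0 of the 10 and in 12.3% of all windows.

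*Gucy1a3* had an FPKM of 22.5, 20.9 and 17.3 in the fragments and of 158, 210 and 151 in mural cells. The lowest mural cell value was thus far above the highest value of the fragments. The difference was 3.03 on the log2 scale (SE 0.17, limma adjusted p = 8.47e-05). The values rest on 358 to 459 fragments per microvascular library and on 530 to 1245 per mural cell library, which can be recovered because the gene has a single annotated transcript. In mural cells *Gucy1a3* ranked 264th of the 14801 genes by FPKM, and 5316th in the fragments.

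*Gucy1b3* had an FPKM of 18.5, 16.7 and 11.1 in the fragments and of 117, 172 and 110 in mural cells. Both *Gucy1a3* and *Gucy1b3* were highest in mural cell replicate 2 and lowest in replicate 3 of the fragments. The log2 fold change of *Gucy1b3* was 3.03 (SE 0.24, limma adjusted p = 2.42e-04), with 157 to 259 fragments behind each microvascular value and 265 to 631 behind each mural cell value. *Gucy1a2* was the least abundant subunit gene, with an FPKM of 7.66, 5.03 and 4.45 in the fragments and of 28.8, 31.0 and 25.8 in mural cells. This was a log2 fold change of 2.16 (SE 0.22, limma adjusted p = 6.60e-04).

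The proportion of the alpha subunits was compared between the groups. *Gucy1a2* made up 25.4%, 19.4% and 20.5% of the FPKM of both alpha subunits in the fragments and 15.4%, 12.9% and 14.6% in mural cells, without overlap. With 1 added to each FPKM, the log2 difference between *Gucy1a2* and *Gucy1a3* was -1.68 ± 0.22 (SD, n = 3) in the fragments and -2.55 ± 0.16 (SD, n = 3) in mural cells. The groups differed by -0.86, and by -0.75 with 0.1 added instead of 1. An exact two-sided permutation test gave p = 0.1, the lowest that 3 samples against 3 can reach. With the replicate block, an exact test that flips the signs of the paired differences gave p = 0.25, also the lowest it can reach. Neither test could therefore pass, and they do not decide whether this proportion differs between the groups. The FPKM of *Gucy1a3* was 1.34 ± 0.191 times that of *Gucy1b3* in the fragments (SD, n = 3) and 1.31 ± 0.0817 times in mural cells (SD, n = 3). The log2 ratio of both alpha subunits to the beta subunit, with 1 added to the summed alpha FPKM and to the beta FPKM, was 0.73 ± 0.16 and 0.61 ± 0.11. It differed by -0.12, and the libraries overlapped (exact two-sided permutation test, n = 3 per group, p = 0.4). The difference was within the spread between replicates. This permutation test also cannot fall below p = 0.1, so it does not decide whether the ratio differs between the groups.

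**Figure D2:**
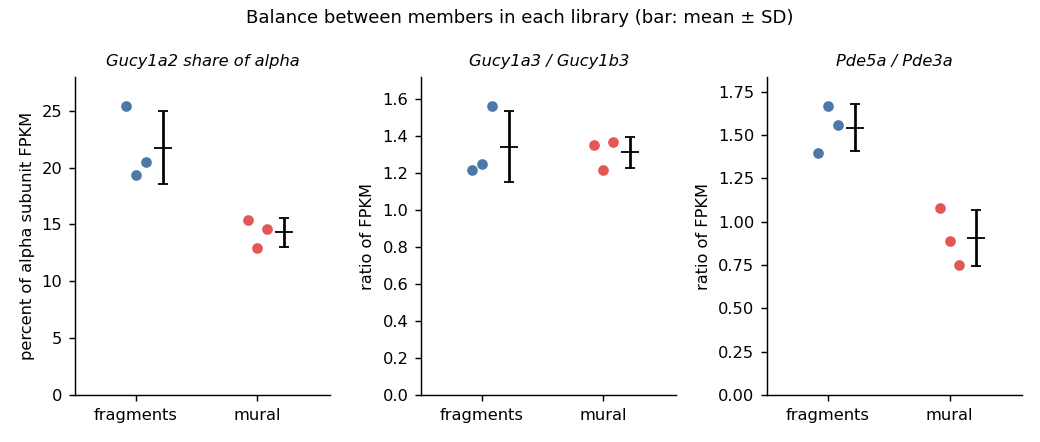
Share of *Gucy1a2* in the summed FPKM of both alpha subunits (left, percent), ratio of FPKM of *Gucy1a3* to *Gucy1b3* (middle) and of *Pde5a* to *Pde3a* (right), per library, with bars for the mean ± SD of 3 libraries. The share of *Gucy1a2* and the ratio of *Pde5a* to *Pde3a* are lower in each mural cell library than in any fragment library, whereas the ratio of *Gucy1a3* to *Gucy1b3* overlaps.

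*Prkg1* (ENSMUSG00000052920, chromosome 19, 30643728 to 31839312), which encodes the cGMP-dependent kinase of smooth muscle, was 4.36-fold higher in mural cells. Its FPKM was 13.4, 14.5 and 13.4 in the fragments and 55.6, 59.3 and 65.1 in mural cells, the narrowest spread of the fragments among the 6 genes called higher. The log2 fold change was 2.05 (SE 0.13, limma adjusted p = 1.18e-04). The gene for the other cGMP-dependent kinase, *Prkg2*, was at an FPKM of at most 0.293 in the fragments and at 0.233, 0 and 2.10 in mural cells, and did not pass the filter on low values.

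Both phosphodiesterase genes were higher in the sorted cells, *Pde5a* by 4.78-fold and *Pde3a* by 8.28-fold. *Pde5a* (ENSMUSG00000053965, chromosome 3, 122432076 to 122562292) encodes an enzyme that breaks down cGMP and is the target of sildenafil. Its FPKM was 21.2, 23.0 and 17.9 in the fragments and 94.0, 108 and 94.2 in mural cells, a log2 fold change of 2.21 (SE 0.14, limma adjusted p = 1.15e-04). *Pde3a* (ENSMUSG00000041741, chromosome 6, 141197790 to 141447872) encodes an enzyme that breaks down cAMP and is inhibited by cGMP. It had an FPKM of 15.2, 13.8 and 11.5 in the fragments and of 87.2, 122 and 125 in mural cells. Replicate 1 was the lowest of the mural cell libraries for *Pde3a*, as it was for the summed smooth muscle markers (1124 against 2140 and 2321), and the part of these cells in the result was not tested. The log2 fold change of *Pde3a* was 2.95 (SE 0.18, limma adjusted p = 1.15e-04). *Pde5a* was at 1.40, 1.67 and 1.56 times the FPKM of *Pde3a* in the fragments and at 1.08, 0.888 and 0.751 times in mural cells, so that *Pde3a* was the higher of both in mural cell replicates 2 and 3 but not in replicate 1.

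*Nos3* was lower in the sorted cells, at 65.9% of the level in the fragments. The gene (ENSMUSG00000028978, chromosome 5, 23870628 to 23890292) had an FPKM of 79.3, 70.5 and 63.8 in the fragments and of 53.4, 44.0 and 43.4 in mural cells. Each mural cell library lay below each library of fragments, as for 24.5% of all genes tested. The log2 fold change was -0.59 (SE 0.14, limma adjusted p = 0.0212), less than 2-fold, and the adjusted p rose to between 0.0513 and 0.106 without an intensity trend or without fragments replicate 1 or 2 or mural cell replicate 2 or 3. The ratio was close to that of the EC genes *Pecam1* (0.629) and *Cdh5* (0.627), and the EC markers as a list had ratios of 0.353 to 1.29. Set against the mean of the 12 EC markers in the same library, *Nos3* stood at -1.01, -1.12 and -1.06 in the fragments and at -1.24, -1.16 and -1.01 in mural cells on the scale of log2(FPKM + 1). The difference of the means, -0.07, was within the spread between replicates (exact two-sided permutation test, n = 3 per group, p = 0.4). Exons of *Nos3* overlap those of *Atg9b* and *Gm15587* on the opposite strand, both at an FPKM of at most 6.32, and the sources used here do not state whether the strand was used in counting.

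The receptors for natriuretic peptides did not pass the test in either direction. *Npr1* (ENSMUSG00000027931, chromosome 3, 90254513 to 90269788), which encodes the receptor for atrial and B-type natriuretic peptide, had an FPKM of 29.1, 31.2 and 24.1 in the fragments and of 25.2, 8.39 and 17.8 in mural cells. Mural cell replicate 1 lay within the range of the fragments, whereas replicates 2 and 3 lay below it. The log2 fold change was -0.80 (SE 0.36, limma adjusted p = 0.161), and it was -0.38 without mural cell replicate 2 and -1.12 without mural cell replicate 1. *Npr2* (ENSMUSG00000028469, chromosome 4, 43644807 to 43664116), which encodes the receptor for C-type natriuretic peptide, had an FPKM of 3.33, 5.73 and 4.55 in the fragments and of 4.76, 3.88 and 6.56 in mural cells, with a log2 fold change of 0.13 (SE 0.29, limma adjusted p = 0.784). *Npr3* (ENSMUSG00000022206, chromosome 15, 11769651 to 11835429), the clearance receptor, had an FPKM of 7.58, 11.4 and 6.79 in the fragments and of 7.57, 8.96 and 6.04 in mural cells, with a log2 fold change of -0.15 (SE 0.26, limma adjusted p = 0.722). The libraries of both groups overlapped for all 3 receptors, and the sign turned for *Npr2* and *Npr3* when single libraries were left out. Exons of *Npr1* and *Npr2* each overlap an antisense gene with a mean FPKM of at most 1.91. Levels of the ligands were low, with *Nppa* and *Nppb* at 0 in all mural cell libraries and *Nppc* at an FPKM of at most 0.774 in any library, which at this depth does not show that they were absent.

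**Figure D3:**
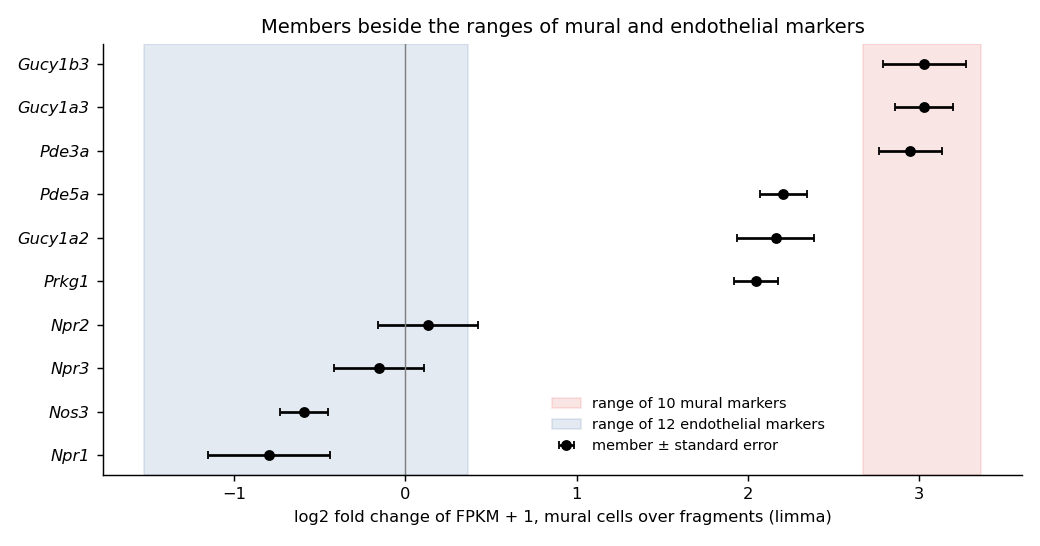
Log2 fold change of the 10 genes (points, with the standard error from limma), with the range of the 12 EC markers shaded blue and that of the 10 mural markers shaded red. *Gucy1b3*, *Gucy1a3* and *Pde3a* lie in the red range, *Pde5a*, *Gucy1a2* and *Prkg1* between both ranges, and *Nos3* and the 3 *Npr* genes in the blue range. The blue range also holds the median of all genes tested (-0.12).

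Beside the markers, the 10 genes fell in 3 positions. The ratios of *Gucy1a3*, *Gucy1b3* and *Pde3a* lay within the range of the 10 mural markers (6.47 to 10.9). Those of *Gucy1a2*, *Pde5a* and *Prkg1*, 4.36 to 4.99, lay below the mural and above the EC range. *Nos3*, *Npr1*, *Npr2* and *Npr3* had ratios of 0.610 to 1.12, within the range of the EC markers (0.353 to 1.29). That range also holds the median ratio of all genes tested, 0.943, so a gene that does not differ between the groups falls in it too. This is a description, and membership in a cell type was not tested.

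Other genes of the pathway were read from 7 lists with 79 genes in all. For the enzymes and regulators of NO synthesis, 3 of 12 genes rose and 1 fell at an adjusted p under 0.05, where 9.34% of all genes tested rose and 13.0% fell, and the median log2 fold change was 0.07. The share that fell rests on *Nos1* alone and is not read against that of all genes, for the reason given below. *Ddah2*, which breaks down an inhibitor of NO synthases, rose from an FPKM of 93.2, 69.4 and 79.5 to 129, 144 and 134, a ratio of 1.68 (limma adjusted p = 0.00705). *Nosip* and *Akt1* rose by 1.52-fold and 1.33-fold. None of these 3 passed the 2-fold limit, and the adjusted p of *Nosip* and *Akt1* was lost in 6 and 7 of the 13 other fits. The 1 gene that fell was *Nos1*, the neuronal synthase, with an FPKM of 6.15, 3.84 and 4.93 in the fragments and of 0.587, 0.321 and 0.136 in mural cells. It reached the filter on low values through the fragments alone, the group in which it is high, so its values are given as a description. *Nos2*, the inducible synthase, was at an FPKM of 11.6, 11.3 and 10.7 in the fragments and of 10.4, 10.4 and 5.72 in mural cells. The genes with the highest FPKM, *Hsp90ab1* (ratio 0.885) and *Dynll1* (ratio 1.18), did not pass.

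In the supply of arginine and of tetrahydrobiopterin, the cofactor of NO synthases, 1 of the 9 genes tested was called higher and 3 were called lower, beside 6.43% and 10.1% of all genes. The single higher gene is close to the number that this background gives. The arginine transporter gene *Slc7a2* had an FPKM of 6.27, 8.14 and 5.28 in the fragments and of 46.3, 72.4 and 52.5 in mural cells, a ratio of 8.70 (log2 fold change 2.93, SE 0.23, limma adjusted p = 2.19e-04). The other arginine transporter gene, *Slc7a1*, was more abundant, with 201 ± 15.1 in the fragments and 182 ± 23.9 in mural cells (SD, n = 3 each), and did not pass, nor did *Qdpr*, which recycles the cofactor (ratio 1.02). *Gch1*, the first enzyme of tetrahydrobiopterin synthesis, had an FPKM of 12.5, 8.08 and 6.84 in the fragments against 3.29, 2.61 and 2.46 in mural cells. *Pts*, the next enzyme, was at 43.2% and *Ass1*, which makes the precursor of arginine, at 24.8% of the fragments. These low values rest on few reads, with 15, 5 and 5 fragments for *Gch1* and 5, 2 and 2 for *Pts* in the mural cell libraries. All 8 microglia markers fell in the same libraries, and their part in these differences was not tested. The calls of all 3 were lost without fragments replicate 1, that of *Ass1* also without fragments replicate 2, and that of *Pts* in 5 of the 13 other fits, namely under quantile normalization, with the replicate block and without fragments replicate 1, 2 or 3.

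Among the effectors of cGMP, 3 of the 11 genes tested were called higher and 1 was called lower, beside 6.43% and 10.1% of all genes, and the median log2 fold change was 0.75. The share called lower was near that of all genes. *Mrvi1*, which encodes the substrate through which the kinase PRKG1 acts on calcium stores, had an FPKM of 8.83, 8.66 and 4.76 in the fragments and of 61.0, 66.4 and 54.3 in mural cells, a ratio of 8.17 (limma adjusted p = 2.59e-04). *Trpc6*, a cation channel that the kinase inhibits, rose from 3.28 ± 0.708 to 38.6 ± 4.01 (SD, n = 3 each), the largest ratio of the lists at 11.8 (limma adjusted p = 1.18e-04). *Kcnmb1*, the beta subunit of the calcium-activated potassium channel, rose by 7.95-fold, from an FPKM of 0.933, 1.30 and 1.19 to 5.79, 8.08 and 13.4, and by 13.5-fold under quantile normalization. Its pore subunit gene *Kcnma1* was at 3.93 ± 0.281 and 4.25 ± 0.873 (SD, n = 3 each). *Itpr1*, the calcium release channel of the endoplasmic reticulum, *Ppp1r12a*, the targeting subunit of myosin phosphatase, and *Vasp*, an actin regulator and a common substrate of the kinase, rose by 1.80, 1.70 and 1.55-fold, and the adjusted p of *Vasp* was lost without fragments replicate 2 or 3. *Gtf2i*, with the highest mean FPKM of the list, did not pass (ratio 1.38). *Rgs2*, a regulator of G-protein signalling that the kinase activates, fell from an FPKM of 52.5, 91.2 and 66.1 to 1.93, 14.2 and 2.19. The difference of *Rgs2* was 11.5-fold (limma adjusted p = 0.00485), and 34.0-fold without mural cell replicate 2 (limma adjusted p = 3.42e-04). In mural cell replicates 1 and 3, 3 fragments over 2 kb would give an FPKM of 0.847 and 1.90. The low values of *Rgs2* there rest on few fragments, so the size of these folds is uncertain. Its ratio, 0.0871, lay within the range of the 8 microglia markers (0.0708 to 0.110), and the part of microglia in this difference was not tested.

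Of the 16 other phosphodiesterase genes tested, 2 were called higher and 1 was called lower, beside 6.43% and 10.1% of all genes, so that these counts are within about 1 gene of the background. *Pde1a*, a calmodulin-dependent enzyme that breaks down cGMP, had an FPKM of 6.19, 8.64 and 6.45 in the fragments and of 55.6, 64.1 and 83.8 in mural cells, a ratio of 9.57 (limma adjusted p = 1.31e-04). *Pde8b*, which is specific for cAMP, rose by 6.70-fold, from 16.3 ± 4.96 to 109 ± 33.8 (SD, n = 3 each). *Pde3b* fell, from 51.6 ± 7.11 to 9.37 ± 3.28 (SD, n = 3 each), to 18.2% of the fragments (limma adjusted p = 6.08e-04), so that it differed in the opposite direction from its close relative *Pde3a*. All 8 microglia markers fell in the same libraries, and their part in the difference of *Pde3b* was not tested. *Pde2a* and *Pde4b*, the most abundant of those not called, had ratios of 1.08 and 1.00. Of the 6 genes tested for export of cGMP, scavenging of NO or heme redox, 1 gene, *Cygb*, which encodes the NO-scavenging globin cytoglobin, was called higher, close to the background of 6.43%. Its FPKM was 3.90, 4.21 and 3.02 in the fragments and 24.6, 16.4 and 22.0 in mural cells (ratio 5.66, limma adjusted p = 7.07e-04), with 26 to 93 fragments behind each mural cell value. *Cyb5r3*, a reductase of the cyclase heme, rose by 1.43-fold and *Abcc4*, an exporter of cyclic nucleotides, fell to 57.9%, less than 2-fold and with an adjusted p that was lost in 7 and 5 of the 13 other fits. *Abcc5* had a ratio of 0.949. Exons of *Slc7a2*, *Mrvi1*, *Cygb* and *Nosip* overlap a gene on the opposite strand. None of the other guanylate cyclase genes and none of the natriuretic peptide genes passed the filter on low values (*Gucy2g* and *Gucy2f*, the highest cyclases, had a mean FPKM of 0.132 and 0.130), and of the peptidases *Ece1* (ratio 1.27) and *Furin* (ratio 1.02) were the most abundant.

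**Figure D4:**
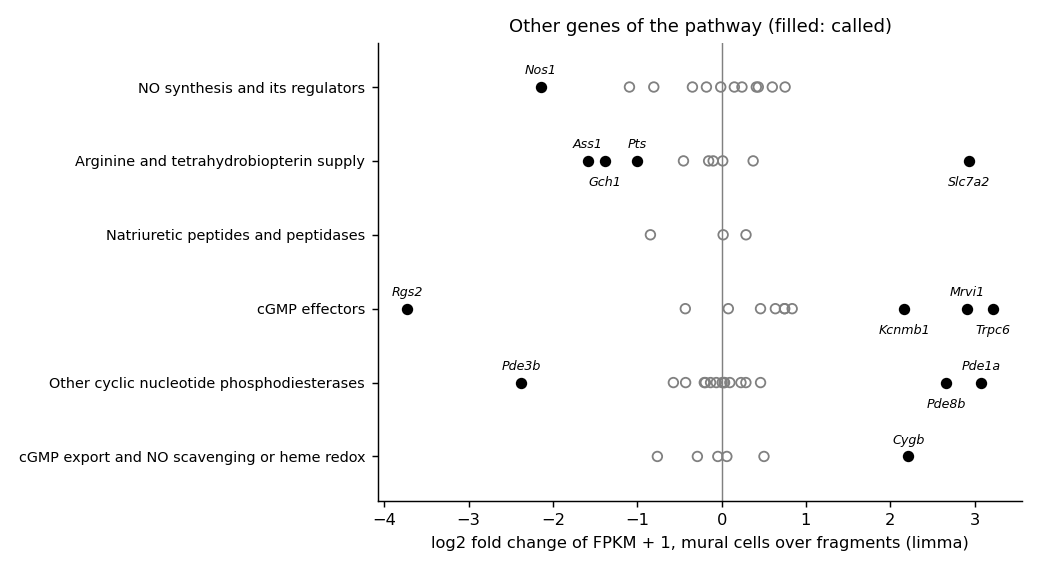
Log2 fold change of the tested genes of each pathway list (x axis, limma), with filled points for genes called higher or lower and open points for the rest. In all, 7 genes were called higher (*Slc7a2*, *Mrvi1*, *Trpc6*, *Kcnmb1*, *Pde1a*, *Pde8b*, *Cygb*) and 6 lower (*Ass1*, *Gch1*, *Pts*, *Rgs2*, *Pde3b* and *Nos1*, which reached the filter through the fragments alone).

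The genes whose 6 values were most like those of 5 of the genes were found by the distance between log2(FPKM + 1) values over the 6 libraries. Closest to *Gucy1a3* were *S1pr3* (distance 0.47), *Lhfp* and *Col1a2*, and closest to *Gucy1b3* were *Pcdh18* (0.37), *Pcolce* and *Ccdc80*. For *Prkg1* they were *Plxdc1* (0.37), *Jam3* and *Marveld1*, and for *Pde5a* *Gpr30* (0.37), *Atp2a3* and *2010110P09Rik*. *Npr1* was most like *Hmgb2* (0.34), *Gps2* and *Gnl2*. With 6 libraries in 2 groups this likeness rests mainly on the level in each group.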

How the data were processed

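RNA was sequenced from mural cells sorted by FACS (3 samples) and from microvascular fragments (3 samples), grouped by their titles. For each library the authors deposited FPKM values by Ensembl gene. Per the labels and methods, reads were aligned with TopHat2 2.0.4 (assembly NCBIM37), duplicates were taken out by Picard 1.92, and Cufflinks 2.2.1 gave the FPKM, without pooling of replicates. The scaling between libraries is not given in the sources used here, and median-ratio factors were 0.993 to 1.022. Removal of duplicates can lower the values of highly expressed genes, and FPKM of genes with several transcripts depend on how reads were shared between them.

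Identical repeated lines of 9 identifiers were dropped. Symbols and positions came from GENCODE for NCBIM37, where 33116 of the 33460 genes were found. Where a symbol had several identifiers, the one with the higher mean FPKM was used. The test was limma 3.58.1 (R 4.3.3, intensity trend) on log2(FPKM + 1), as FPKM are not counts and no count test was used. Balances between genes were compared with exact two-sided permutation tests and, for the replicate block, with exact tests that flip the signs of the paired differences. Other steps used Python 3.11.15, pandas 2.3.3 and NumPy 2.4.6. Fragments behind a value were recovered for genes with 1 annotated transcript, whose low values were whole multiples of 1 fragment in 97.2 to 98.7% of cases (tolerance 0.05, assumed mean fragment length 210 bases). The fit was tested on simulated data.

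The genes named are the 10 members, the pathway genes called higher or lower, the 2 most abundant genes of each list that were not called, the marker lists, and the 3 genes of nearest profile for 6 of the members, of which those for *Nos3* are not reported here. The pathway genes past the adjusted p alone, a few further ones (*Prkg2*, *Nos2*, *Kcnma1*, *Nppa*, *Nppb*, *Nppc*), *Dpt* and the genes that overlap *Nos3* were named after their values were seen. Members and lists were chosen with earlier results of these data known. The labels number replicates 1 to 3 in both groups and do not tie a number to an animal. Alternatives were a pseudocount of 0.1, median-ratio and quantile scaling, the replicate block, no trend, no filter on low values, a minimum FPKM of 5, an adjusted p under 0.01 and leaving out each library. The methods name 3 brains, each split between the groups. The main fit took the samples as unpaired, so its p-values do not use this split. They rest on the spread between these samples, with variances drawn together across genes by limma.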

Additional observations from a re-analysis of the deposited data

How the results depend on the processing

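The 6 genes called higher were called in all 13 other fits and at an adjusted p under 0.01, and none of the 10 was called lower. Log2 fold changes ranged from 2.88 to 3.12 for *Gucy1a3*, 2.82 to 3.17 for *Gucy1b3*, 2.02 to 2.36 for *Gucy1a2*, 1.99 to 2.12 for *Prkg1*, 2.11 to 2.28 for *Pde5a* and 2.84 to 3.12 for *Pde3a*. *Nos3* ranged from -0.69 to -0.51 and lost its adjusted p in 5 of 13 fits. *Npr1* ranged from -1.12 to -0.38 without passing. When each library was left out, *Npr2* ranged from -0.038 to 0.285, with -0.034 without fragments replicate 1 and -0.038 without mural replicate 3, and *Npr3* from -0.289 to 0.046, the latter without fragments replicate 2. A minimum FPKM of 5 removed *Npr2*.

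Over all genes, 1493 were called lower, 948 with the minimum of 5, which tests fewer genes, 845 at an adjusted p under 0.01, and 607 to 1733 when each library was left out, with the low values without fragments replicate 1 (654), 2 (702) or 3 (607). The number called higher, 952, ranged from 691 to 949 when each library was left out. Of the pathway genes, 7 were called higher in each fit run, and the 6 called lower became 2 to 8 when each library was left out, 2 without fragments replicate 1 and 3 without fragments replicate 2. *Nos1* then did not reach the filter, *Ass1* and *Pts* lost the call, and so did *Gch1* without fragments replicate 1. The cause of the other shifts was not tested.

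With the replicate number as a block, 6 of the 10 genes were called higher and 0 lower, 900 genes in all were called higher and 1344 lower, and 7 pathway genes were called higher and 5 lower, without *Pts*. Deviations from the group means correlated with r of 0.082, 0.02 and 0.045 for samples of the same number, and every sample correlated best with its own number, a hint from the data and not from the design. The balances kept their sign in all fits run, from -0.95 to -0.74 between the alpha subunits, from -0.19 to -0.031 for alpha to beta and from -0.14 to -0.020 for *Nos3* against EC markers. For these balances with the block, an exact test that flips the signs of the paired differences gave p = 0.25, 0.25 and 0.75. The lowest p it can reach is 0.25, so it could not pass for any of them. Mural cell libraries hold fewer fragments, which limits what can be said of low values there.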
